A study of Rattus norvegicus with 24 samples.

Results

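A CpG is a palindrome, so each CpG carries a cytosine on either strand that can be methylated. The subject of this report is the set of CpGs whose methylation was read on both strands, with at least 10 reads on the forward strand at a base and at least 10 reads on the reverse strand at the next base, in all 12 reduced representation bisulfite sequencing (RRBS) libraries. There were 24625 such CpG pairs, which hold 49250 of the 404069 single-strand CpGs with 10 reads in all 12 libraries (12.2%). The rule used coverage alone and no methylation value. Of the pairs, 24109 lie on autosomes and 516 on the X chromosome.

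The libraries were made from kidney DNA of female rats aged about 2 months. Outbred Sprague Dawley (CD) and inbred Brown Norway (BN) rats were either non-pregnant (NP) or at day 18 of a pregnancy by a male of their own strain (P18), which gave the groups CD-NP, CD-P18, BN-NP and BN-P18 with 3 rats each. Positions are in Rnor6.0, which was assembled from BN rats, and are given as the forward-strand base. Kidney tissue mixes many cell types, so a level is an average over cells. Permutation p-values measure the spread between these rats. Those of the fitted models also use a spread shared between sites that is never under counting error. The gene counts of the series list identifiers without names, so the kidney label was not checked against marker genes.

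Methylation of a CpG is copied after DNA replication. The parental strand keeps its methyl group, UHRF1 recognises the half-modified site and recruits the maintenance methyltransferase DNMT1, and the new strand receives the same mark. Both strands therefore normally carry the same state, and a site methylated on a single strand is called hemimethylated. In females, 1 of the X chromosomes is inactive in each cell, and CpG islands on the inactive copy are methylated while those on the active copy are not. In RRBS, the enzyme MspI cuts the genome at CCGG regardless of methylation, bisulfite turns unmethylated cytosines into uracil, which is read as T, and the 2 strands of a fragment are converted and sequenced as separate molecules. The levels of the 2 strands of a pair are therefore separate readings of 1 rat.

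The lists held 1605494 to 2230970 CpGs per library with a summed coverage of 21669162 to 44738436 reads, and between 105833 and 383887 pairs per library reached 10 reads on both strands. The fewest were in the 3 BN-P18 libraries (105833 to 139285). Over the 24625 pairs, the median coverage of a strand was 16 to 32 reads per library on either strand. With so few reads, a single level is coarse, and statements on single pairs rest on all rats together.

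Both strands had nearly the same mean level in every rat. The mean methylation over the pairs ranged from 36.2 to 36.8% on the forward strand and from 36.1 to 36.8% on the reverse strand. The difference between the means, forward minus reverse, lay between -0.107 and 0.0580 points, with a mean over rats of -0.0257 points (SD 0.0595, n = 12; p = 0.162, 2-sided exact sign-flip permutation test). Weighting each pair by its coverage turned the sign, to 0.0828 points (SD 0.0712, n = 12; p = 0.00293 and adjusted p = 0.0234 in the family of 8 exact tests). Among the 260 pairs with 20 reads in all libraries the difference was 0.594 points (p = 0.000977, exact sign-flip permutation). All of these differences were under 1 point. The difference between strands did not differ detectably between BN and CD rats (-0.0422 points, exact permutation p = 0.229, adjusted p = 0.306) or between P18 and NP rats (-0.0271 points, exact permutation p = 0.439, adjusted p = 0.502).

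The levels of single pairs followed each other closely. Across the pairs of a rat, the Pearson correlation of the strands was 0.969 to 0.983, given as a description, since all pairs of a rat share 1 library. The mean absolute difference between the strands was 4.46 to 5.89 points per rat, and 79.0 to 85.9% of pairs had strands within 10 points. The lowest value of the correlation belonged to CD-NP replicate 3, the library with the lowest median coverage of the pairs (16 reads), and the highest to BN-NP replicate 3, the library with the highest (32 reads). Fisher's exact test of the reads of a pair, adjusted within a rat, called between 5 and 18 pairs per rat. An unadjusted p under 0.05 in it was reached by 299 to 437 pairs (1.21 to 1.77%). These tests compare the reads of 1 library and cover counting error only.

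**Figure D1:**
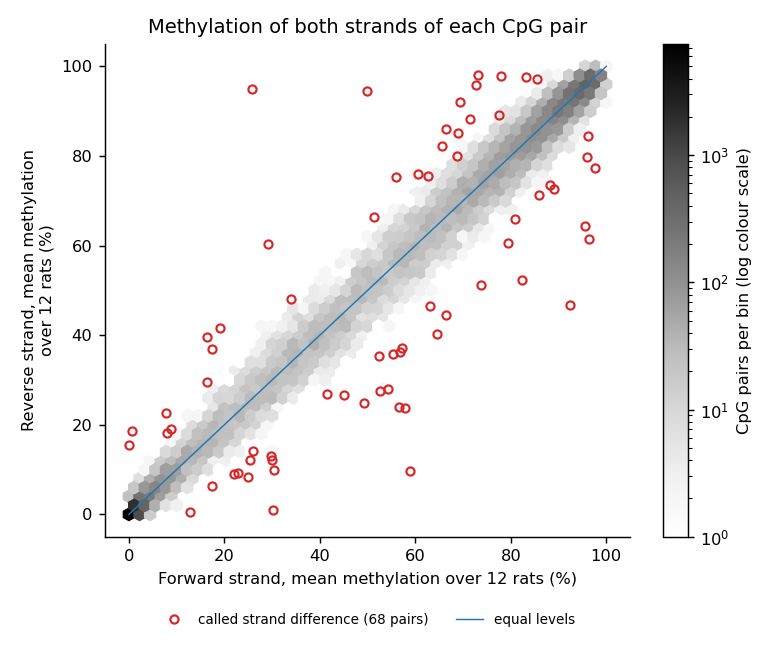
Mean methylation of the forward strand (horizontal axis, %) and of the reverse strand (vertical axis, %) over 12 rats for 24625 CpG pairs, with the number of pairs per bin in grey on a log colour scale and the 68 pairs with a called strand difference as red circles. The pairs lie along the line of equal levels, and the circle at the top left is the pair read at 25.7% on the forward strand and at 94.8% on the reverse strand.

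The pairs fell into the classes typical of mammalian CpGs, mostly unmethylated or mostly methylated. By the level of both strands over all rats, 12072 pairs were under 10% (49.0%), 1450 between 10 and 30%, 3283 between 30 and 70% (13.3%), 3922 between 70 and 90% and 3898 over 90%. The mean absolute difference between strands was 1.57 points under 10%, 11.8 points between 30 and 70% and 5.30 points over 90%. Relative to the variance that counting reads gives at each level and coverage, the variance of the difference was 1.04 times in the lowest class, 1.12 times in the middle class and 1.04 times in the highest.

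On average, X-chromosome pairs were read at an intermediate level on both strands. Their mean level per rat was 48.9 to 52.5% on the forward strand and 48.6 to 52.9% on the reverse strand, against 35.9 to 36.5% for both strands of the autosomal pairs, so that no rat's X value overlapped any rat's autosomal value. The forward minus reverse difference of the X pairs averaged -0.140 points (SD 0.764, n = 12). Of the X pairs, 39.3% stood between 30 and 70%, against 12.8% of the autosomal pairs, and 4.84% stood under 10%, against 49.97%. A level between 30 and 70% on both strands in each of the 12 rats was found for 133 pairs, 16 of them on X (3.10% of X pairs) and 117 on autosomes (0.485%). Their largest group was chrX:156227482-156227930, where 5 of the 15 pairs belonged to them. Single reads, which would show whether such a level is a mixture of methylated and unmethylated molecules, were not analysed here.

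On average the strands of a rat differed less than 2 rats of a group did, although the ranges overlapped. The variance of the difference between strands, relative to that of counting reads, was 1.06 to 1.16 (mean 1.09, n = 12 rats). Between 2 rats of the same group, on the same strand, this ratio was 1.05 to 1.29 (mean 1.18, n = 12 pairs of rats), and between an NP and a P18 rat of a strain it was 1.04 to 1.33 (mean 1.17, n = 18). Between a BN and a CD rat at the same stage it was 1.53 to 2.18 (mean 1.72, n = 18), above every value of the other kinds. Rats enter several of these comparisons, so the values are a description without a test. The ratio of the strands, BN minus CD rats, was -0.0332 (exact permutation p = 0.0476, adjusted p = 0.190), which did not pass after adjustment.

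**Figure D2:**
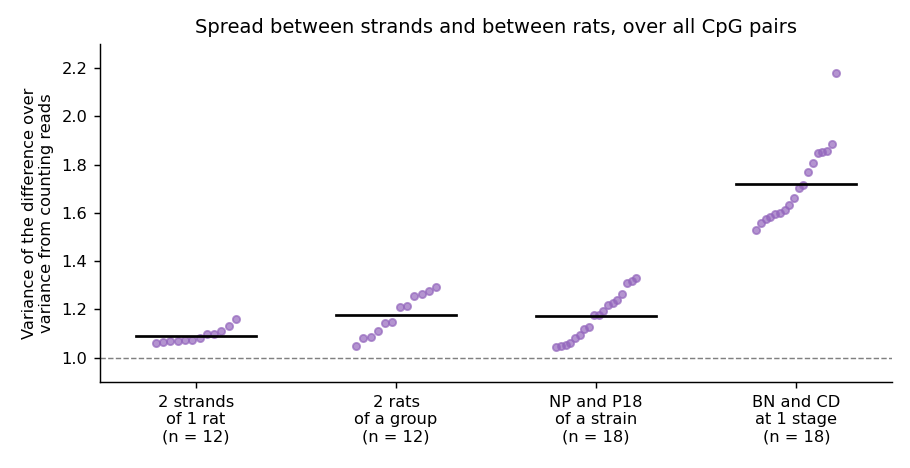
Variance of the methylation difference over the variance expected from counting reads (vertical axis, no unit) between the strands of 1 rat, 2 rats of a group, an NP and a P18 rat of a strain, and a BN and a CD rat at 1 stage. Each point is a rat or a pair of rats, lines are means, and the dashed line is counting error alone. The strands of 1 rat lie between 1.06 and 1.16, and the BN and CD comparisons between 1.53 and 2.18.

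A CpG's partner on the other strand was closer to it than the next CpG on the same strand, relative to counting error. For pairs whose next pair lay 2 bases away, the variance ratio to that neighbour on the same strand was 1.18 on average, against 1.01 to the partner of the same CpG (969 neighbouring pairs). At 3 to 10 bases it was 2.07 against 1.15 (4071), at 11 to 50 bases 2.86 against 1.15 (3808) and at 51 to 200 bases 3.15 against 1.07 (1388). The ratio to the neighbour was higher at each longer distance, while that to the partner stayed within 1.01 to 1.15. In points, the neighbour 2 bases away was as close as the partner, with mean absolute differences of 2.52 and 2.56, and at 51 to 200 bases they were 7.73 and 5.03. Neighbours on a strand can lie on the same reads, while partners come from different molecules.

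Hemimethylated pairs were rare. A pair was counted as hemimethylated in a rat where 1 strand was read at 70% or more and the other at 30% or less. This held for 115 of 295500 combinations of pair and rat (0.0389%), with 1 to 20 pairs per rat. The count depends on the limits, with 9 combinations at 80 and 20% and 1686 at 60 and 40%. The count was highest in CD-NP replicate 3 (20), the library with the fewest reads on the pairs, and lowest in CD-P18 replicate 1 (1), a library with a median of 31 reads. Of the 105 pairs involved, 102 were hemimethylated in a single rat, and no pair was hemimethylated in all 12. The only pair in 6 or more rats was chr2:161553202, hemimethylated in 8.

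A strand difference was called for 68 pairs, which is 0.276% of the 24625 tested. The call asked for an adjusted p under 0.05 from limma, over all pairs and the 12 rats, and a mean difference over 10 points. The forward strand was higher in 39 and the reverse strand in 29. An adjusted p alone was reached by 90 pairs, and an unadjusted p under 0.05 by 1135 (4.61%). The called differences had a median size of 17.9 points, from 10.2 to 69.2 points, and the nearest pair under the minimum, at 9.76 points, had passed on its adjusted p. The direction was the same in 12 rats for 25 of the called pairs and in at least 10 rats for 58. At chr18:47895239 and chr19:11303055 it was the same in only 7 rats. Of the 68 pairs, 8 were also called as depending on strain, so their mean averages over unlike strains. Most calls lay at intermediate levels. There was 1 called under 10% (0.00828% of that class), 18 between 10 and 30% (1.24%) and 29 between 30 and 70% (0.883%). A further 18 lay between 70 and 90% (0.459%) and 2 over 90% (0.0513%). Strands that both lie close to the same end of the scale cannot differ by over 10 points. The low shares under 10% and over 90% are therefore partly fixed by the call, and do not show where strand differences lie.

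The call rests on sharing information on spread between pairs. The shared variance had a median of 0.996 times that of counting reads and 199 degrees of freedom, and counting error alone called 71 pairs. The p-values of the strand fit therefore rest mostly on counting error. An exact sign-flip test over the 12 rats, on the same differences that the call used, gave an unadjusted p of 0.000488 for 25 of the 68. This is the lowest value that 12 rats allow, reached where all 12 share a direction. It restates that shared direction and adds no support to the calls. With each pair's own variance in place of the shared one, chosen after seeing the data, 13 pairs were called, all of them among the 68. At 20 reads in all libraries, where 260 pairs remain, 12 were called. The called pairs had more reads than the rest, with a median of 39.96 per strand and rat against 23.5 over all pairs, and their coverage was less even, with a median ratio of the deeper to the shallower strand of 1.56 against 1.202. A strand with over 100 reads on average occurred in 8 of the 68 called pairs and in 181 of all 24625. The part of coverage in the calls was not tested, beyond that 58 pairs were called among those with at most 100 reads on either strand.

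The largest difference was at chr2:161553202 (pair A). Its forward strand was read at 4.35, 40 and 15.8% in CD-NP, at 11.1, 13.2 and 22.6% in CD-P18, at 28.9, 37 and 26.1% in BN-NP and at 31.0, 52.4 and 26.5% in BN-P18. Its reverse strand was read at 89.7, 100 and 100% in CD-NP, at 100, 95.5 and 96.8% in CD-P18, at 97.0, 91.9 and 85.4% in BN-NP and at 90.5, 95.7 and 95.7% in BN-P18. The highest forward value of any rat, 52.4%, lay under the lowest reverse value, 85.4%. The difference was -69.2 points (SE 3.58, adjusted p = 4.28e-44, limma). The other called pair within 1000 bases, chr2:161553959, was higher on the forward strand, by 24.1 points (SE 4.69, adjusted p = 0.000318, limma).

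At chr2:549607 (pair B), in a CpG island shore by the study's annotation, the strands stood the other way round. The forward strand was read at 60.1, 62.2 and 47.6% in CD-NP, 51.3, 42.0 and 58.6% in CD-P18, 60.5, 56.7 and 70.8% in BN-NP and 65.2, 66.2 and 66.7% in BN-P18. The reverse strand was read at 0 to 22.9% in the 12 rats, with a median of 8.01%. The strands did not overlap, with a difference of 49.5 points (SE 3.61, adjusted p = 2.60e-27, limma). The coverage was uneven, 151 reads on the forward strand and 18.7 on the reverse strand on average.

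At chr6:59108068 (pair C), the reverse strand was nearly fully methylated, at 83.3 to 100% in the 12 rats, while the forward strand was read at 54.8, 42.4 and 42.9% in CD-NP, 46.9, 47.1 and 38.7% in CD-P18, 66.7, 41.7 and 54.0% in BN-NP and 60, 52 and 52.6% in BN-P18. The difference was -44.5 points (SE 3.98, adjusted p = 1.21e-19, limma). At chr15:5791394 (pair D), the forward strand was at 84.2 to 96.9%, and the reverse strand at 33.8, 65.1 and 39.2% in CD-NP, 33, 34.5 and 75% in CD-P18, 45.5, 48.7 and 44.6% in BN-NP and 52.9, 51.7 and 36.7% in BN-P18. Its difference was 42.9 points (SE 2.37, adjusted p = 1.71e-40, limma). In both pairs, 1 strand was near full methylation in all rats and the other near the middle of the scale.

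Pairs H and J had smaller differences. At chr12:9767103 (pair H), the forward strand was read at 69.6 to 95.2% with a median of 82.8% and the reverse strand at 31.8 to 66.7% with a median of 51.8%, a difference of 29.96 points (SE 4.09, adjusted p = 5.73e-09, limma). At chr7:50713463 (pair J), the reverse strand was at 90.9 to 100% and the forward strand at 38.5 to 93.8% with a median of 78.7%, a difference of -24.6 points (SE 3.37, adjusted p = 6.68e-09, limma). The ranges of the strands overlapped in pair J. Its reverse strand was the higher in each rat, which the rule for naming these pairs required. With each pair's own variance, the calls of H, I and J were lost (adjusted p = 0.100, 0.0567 and 0.878, limma's fit without moderation).

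**Figure D3:**
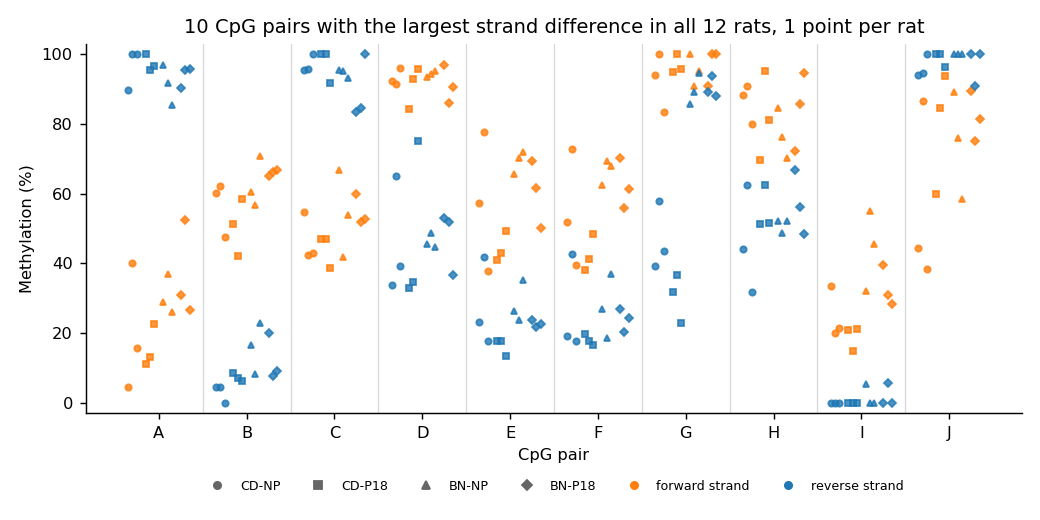
Methylation (vertical axis, %) of the forward strand (orange) and the reverse strand (blue) of the 10 pairs A to J in each of the 12 rats, with the group given by the marker. In pairs A to D, H and I no forward value overlaps a reverse value, in E, F and J the ranges overlap, and in G the strands are apart in the CD rats and close in the BN rats.

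Some called pairs lay close together. Of the 68, 31 (45.6%) had another called pair within 1000 bases on either side, against 135 of all 24625 pairs (0.548%). The largest cluster was chr9:7466684-7467121, where 10 of 19 pairs were called, 9 with the forward strand higher. It holds pairs E (chr9:7467014), F (chr9:7467023) and I (chr9:7467120), which lie in a CpG island by the study's annotation. In pair E, the forward strand was read at 37.8 to 77.8% and the reverse strand at 13.3 to 41.8%, and in pair F at 38.2 to 73.0% and 16.4 to 42.6%. In pair I, the forward strand was at 14.7 to 55.0%, while the reverse strand was at 0 in 10 of 12 rats, 0 of 165 reads, which allows up to 1.82%. The mean level over the 10 called pairs was 45.3% on the forward strand (SD 10.4, n = 12) and 24.8% on the reverse strand (SD 5.21), and over the other 9 pairs 38.2% (SD 7.74) and 36.1% (SD 8.62). The call used these same values, so the contrast between both sets is a description that the choice fixes.

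At chr1:54441367-54441423, all 6 pairs were called. The first, chr1:54441367, was higher on the reverse strand, at 17.3% forward and 37.0% reverse on average over 12 rats. The other 5 were higher on the forward strand, by 12.9 to 16.6 points. Neighbours in a cluster can share reads, so these calls are not independent.

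Most strain differences were read on both strands. At NP, 104 pairs were differentially methylated CpGs (DMC) between BN and CD rats on each strand by itself, that is, with an adjusted p under 0.05 over all 404069 CpGs and a difference over 10 points. BN was higher in 85 and lower in 19, and the direction was the same on both strands in all 104. A further 32 were called on the forward strand alone and 44 on the reverse strand alone, so that 57.8% of the 180 pairs called on any strand were called on both. The share of CpGs called over the whole table was 0.602%, and that of the pairs was 0.552% on the forward and 0.601% on the reverse strand, near this background. At P18, in other rats, 107 pairs were called on both strands (89 higher and 18 lower in BN, again always in the same direction), 35 on the forward strand and 32 on the reverse strand alone, which makes 61.5% of 174 called on both. The background was 0.592%, against 0.577 and 0.564% for the strands of the pairs.

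The size of the strain difference was similar on the strands, where a call on both was needed to be counted. In the pairs called on both strands, the median size was 56.6 points at NP and 55.8 points at P18, and the strands were within 10 points of each other in 86 of 104 and in 87 of 107 pairs. The largest gap between the strands was 20.2 points at NP and 21.2 points at P18. Summing the reads of both strands and testing each pair once called 159 pairs at NP and 164 at P18.

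**Figure D4:**
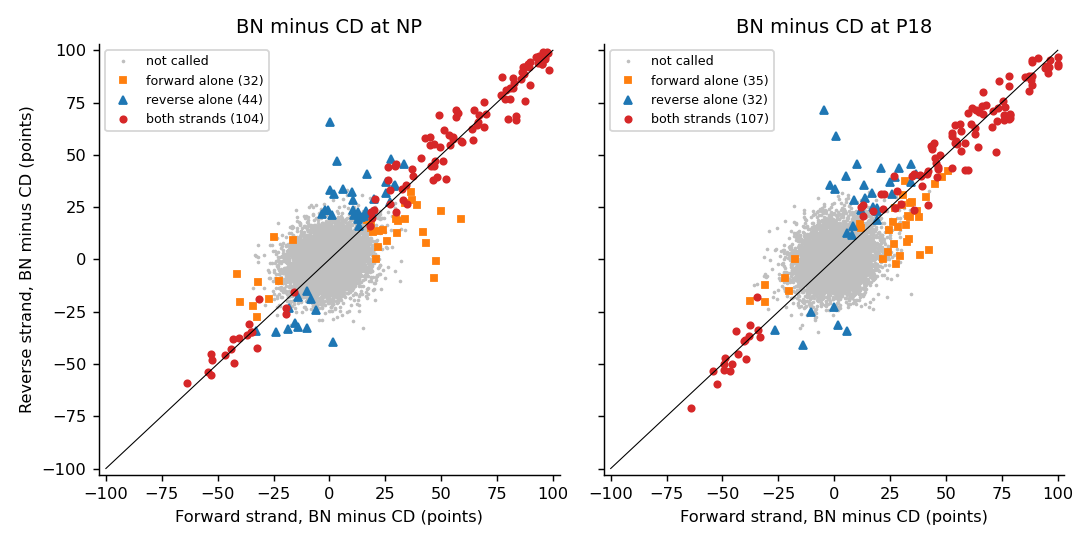
Difference in methylation between BN and CD rats (BN minus CD, points) on the forward strand (horizontal axis) and on the reverse strand (vertical axis), at NP (left) and P18 (right), 1 point per CpG pair. The 104 and 107 pairs called on both strands (red) lie along the line of equal differences, and pairs called on a single strand (orange, blue) lie nearer the centre.

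Most pairs called on a single strand had the same sign on the other. Of these 76 pairs at NP, 68 had the same sign on the other strand, 54 differed there by over 10 points and 46 had an unadjusted p under 0.05 there. Their median size was 29.96 points on the called strand and 14.1 points on the other. A call on the called strand was needed to enter this set, so its value there is the selected one. At P18, 61 of 67 had the same sign, with medians of 31.6 and 15.4 points. The strand difference itself depended on strain, by its own test at that stage, in 5 of the 76 and in 6 of the 67. A call on 1 strand and not on the other is therefore no test of a difference between strands, and the test of that difference follows.

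The strain differences were read again at the other stage, where no rat is shared, on the other strand. Of 136 pairs called on the forward strand at NP, 128 had the same sign on the reverse strand at P18 and 94 were called there. Of 148 called on the reverse strand at NP, 141 had the same sign on the forward strand at P18 and 96 were called. Starting from P18, 132 of 142 and 133 of 139 had the same sign, with 96 and 94 called. On both strands and at both stages, 82 pairs were called, 67 higher and 15 lower in BN.

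Among the 67 pairs higher in BN, the median level was 87.2% in BN and 5.61% in CD, with a range over pairs of 16.4 to 97.9% in BN and of 0 to 68.0% in CD. All 6 CD rats were under 10% in 31 of them, and all 6 BN rats over 90% in 14. These 67 pairs lie in 63 stretches when pairs within 1000 bases are joined, 60 of them a single pair. A site reads as unmethylated where a rat carries T in place of C. Whether the CD rats carry such a base at these pairs was not tested. Rats of 1 strain were uneven in some, with an SD over 15 points among the 6 CD rats in 27 of the 67 pairs and among the 6 BN rats in 1. Among the 15 lower in BN, the medians were 12.7% in BN and 58.1% in CD, but 10 of the 15 lie in a single stretch, chr1:11910046-11911002, and the 15 make up only 5 stretches.

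The largest difference upwards was at chr4:132343587. In the CD rats, the forward strand was at 0 in all 6 (0 of 137 reads, which allows up to 2.19%), and the reverse strand at 0 in 5 and at 3.45% in the last. In BN-NP, the forward strand was read at 100, 96.6 and 97.1% and the reverse strand at 97.2, 100 and 100%. In BN-P18, the forward strand was at 100% in all 3 and the reverse strand at 100, 95.5 and 88.9%. BN and CD rats did not overlap on either strand. The difference was 97.8 points forward and 98.9 points reverse at NP (adjusted p = 2.26e-23 and 6.77e-23) and 100 and 93.4 points at P18 (adjusted p = 1.45e-19 and 1.25e-15), from the logistic model with limma's moderated dispersion.

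The other 4 named pairs had the same pattern. At chr15:24013883, CD rats were at 0 to 8.33% over both strands and BN rats at 82.4 to 100%. At chr18:3463263, all 6 CD rats were at 0 on both strands (0 of 151 and 0 of 100 reads, up to 1.99 and 3%), and BN rats at 90.9 to 100%. At chr4:158076531, all 6 CD rats were at 0 on both strands (0 of 95 and 0 of 122 reads, up to 3.16 and 2.46%), and BN rats at 88.2 to 100%. At chr13:82841101, CD rats were at 0 on the forward strand (0 of 189 reads, up to 1.59%) and at 0 to 18.2% on the reverse strand, and BN rats at 94.4 to 100%.

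Of the 5 named pairs lower in BN, 2 lie on chromosome 13 and 3 on chromosome 1. At chr13:51945974, all 6 BN rats were at 0 on both strands (0 of 142 and 0 of 90 reads, up to 2.11 and 3.33%). The CD-NP rats were at 100, 0 and 53.8% on the forward strand and 100, 0 and 50% on the reverse strand, and the CD-P18 rats at 47.6, 44.4 and 96.9% and at 36.4, 41.7 and 100%. The levels of the CD rats thus stood near the bottom, the middle or the top of the scale, and each rat stood at the same place on both strands. At chr13:51950714, the CD-NP rats were at 92.9, 0 and 58.3% forward and 96.4, 0 and 42.9% reverse, the CD-P18 rats at 33.3, 21.4 and 100% and at 32.1, 18.2 and 100%, and all 6 BN rats were at 0 on both strands (0 of 116 and 0 of 142 reads, up to 2.59 and 2.11%). Leaving out CD-NP replicate 1 reduced the NP difference, taken as the mean of the strands, to -26.5 and -20.6 points, and neither pair then passed on both strands (adjusted p = 0.875 and 1, logistic model with limma's moderated dispersion). Without CD-NP replicate 2, the rat at 0, the differences were -82.7 and -75.2 points.

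In the CpG island on chromosome 1 that holds chr1:11910050, chr1:11910085 and chr1:11910089, the levels were intermediate in both strains and the coverage was high, 193 to 708 reads per strand and rat on average. At chr1:11910089, the forward strand was read at 81.4, 71.1 and 57.8% in CD-NP and 67.4, 88.1 and 68.9% in CD-P18, and at 17.5, 12.7 and 19.6% in BN-NP and 20, 2.61 and 33.2% in BN-P18. The reverse strand was at 49.5 to 88.1% in the CD rats and at 1.46 to 29.6% in the BN rats. The strains did not overlap on either strand, and the difference at NP was -54.4 points forward and -54.0 points reverse (adjusted p = 6.16e-19 and 5.94e-17, logistic model with limma's moderated dispersion). At the other 2 pairs the differences were -48.2 to -55.1 points at NP and -49.5 to -53.0 points at P18.

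The strain difference was unequal on the strands in 8 pairs, 0.0325% of those tested for it with limma, 3 with a larger and 5 with a smaller forward minus reverse difference in BN than in CD. An unadjusted p under 0.05 was reached by 793 pairs (3.22%). By stage, 5 pairs were called at NP (0.0203%) and 6 at P18 (0.0244%). With each pair's own variance in place of the shared one, 2 were called, pairs K and N of the next paragraphs, while the calls of G, L and M were lost (adjusted p = 0.644, 0.896 and 0.647, limma's fit without moderation). In the 5 largest, 1 strand was read alike in both strains while the other was not.

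At chr18:47895239 (pair K), the forward strand was at 90.9 to 100% in all 12 rats. The reverse strand was read at 84.2 to 100% in the 6 BN rats, and at 27.6, 35.6 and 37.2% in CD-NP and 33.7, 4 and 21.3% in CD-P18. The strains did not overlap on the reverse strand. The BN minus CD difference in forward minus reverse was -70.5 points (SE 4.29, adjusted p = 4.53e-35, limma). The reads moved with it, from 49.0 forward and 34.3 reverse per BN rat to 75.2 forward and 163 reverse per CD rat.

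Pair G (chr17:47694758) had the same form. Its forward strand was at 90.9 to 100% in BN and 83.3 to 100% in CD rats. Its reverse strand was at 85.7, 89.3 and 94.6% in BN-NP, 89.2, 93.8 and 88% in BN-P18, 39.2, 58 and 43.5% in CD-NP and 31.8, 36.7 and 22.9% in CD-P18. The strains did not overlap on the reverse strand. BN minus CD in forward minus reverse was -51.6 points (SE 6.999, adjusted p = 3.30e-08, limma). The reverse strand had 31.7 reads per BN rat and 102.8 per CD rat, with 13.7 and 15.5 on the forward strand. Tested at each stage by itself, the strain difference in forward minus reverse passed at P18 and not at NP (adjusted p = 5.24e-05 and 0.0777, limma).

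At chr2:193573080 (pair N), the deepest of the 5, the forward strand was at 93.8 to 98.2% in all 12 rats. The reverse strand was at 95.2 to 97.7% in the BN rats and at 68.9, 59.4 and 66.7% in CD-NP and 64.7, 58 and 62.3% in CD-P18. The CD rats lay close together (63.3%, SD 4.21, n = 6). BN minus CD in forward minus reverse was -31.5 points (SE 2.02, adjusted p = 1.39e-32, limma).

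In pair L (chr3:98033649) it was the forward strand that differed. It was at 42.2, 45.2 and 58.6% in CD-NP and 45.8, 41.4 and 47.9% in CD-P18, against 80 to 100% in the BN rats. The reverse strand was at 87.5 to 100% in all 12. BN minus CD in forward minus reverse was 43.5 points (SE 6.85, adjusted p = 5.22e-06, limma). Tested at each stage by itself, this strain difference passed at NP and not at P18 (adjusted p = 0.000397 and 0.738, limma), and whether the stages differ was not tested. In pair M (chr19:11303055), levels over 10% were read only on the reverse strand of the CD rats. The forward strand was at 0 in all 6 CD rats, 0 of 113 reads, which allows up to 2.65%, and at 0 to 4.17% in the BN rats. The reverse strand was at 0 to 4.35% in the BN rats and at 23.1, 51.9 and 50% in CD-NP and 24.4, 35.2 and 31.9% in CD-P18. BN minus CD in forward minus reverse was 36.9 points (SE 5.26, adjusted p = 1.61e-07, limma).

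**Figure D5:**
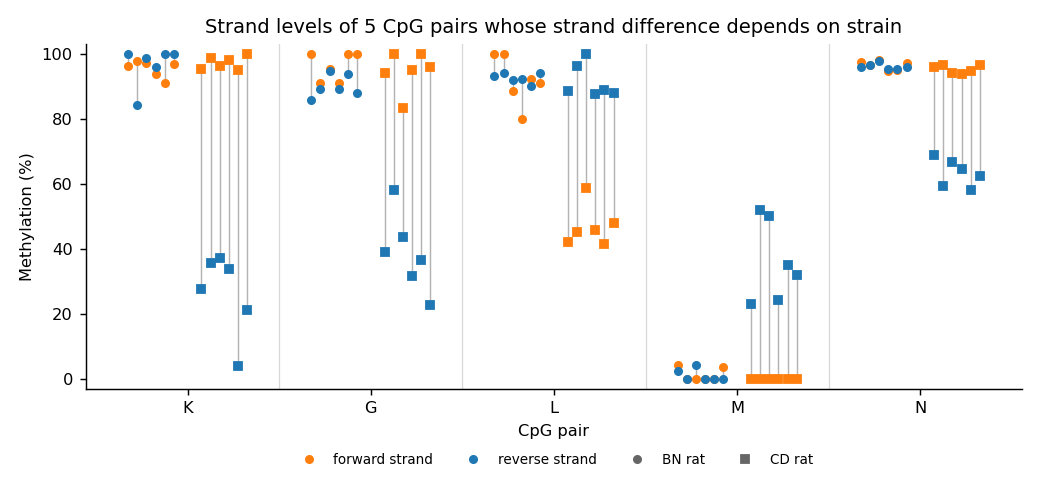
Methylation (vertical axis, %) of the forward strand (orange) and the reverse strand (blue) of pairs K, G, L, M and N in each rat, circles for the 6 BN rats and squares for the 6 CD rats, with a line joining the strands of a rat. In each pair the strands of the BN rats lie together and those of the CD rats apart, on the reverse strand in K, G, M and N and on the forward strand in L.

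The last 3 of the 8 pairs are named although they fall outside the rule for named pairs. At chr7:22453137, the forward strand averaged 40.9% (SD 14.2, n = 6) in BN and 19.9% (SD 14.8) in CD rats, and the reverse strand 7.10% (SD 3.14) and 12.6% (SD 12.8). At chr19:56338936, the forward strand averaged 21.4% (SD 2.78) in BN and 11.3% (SD 5.53) in CD rats, and the reverse strand 46.8% (SD 11.9) and 12.2% (SD 10.98), with over 1000 reads on the forward strand and 26.7 and 34.5 on the reverse strand per rat. At chr18:545831, the forward strand averaged 57.2% (SD 4.29) in BN and 80.8% (SD 7.29) in CD rats, and the reverse strand 88.9% (SD 11.1) and 81.4% (SD 10.2). Here the strands differed mainly in the BN rats, unlike in the 5 largest.

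The reads of the strands were distributed differently in the strains at most of the 8 pairs. The ratio of reverse to forward reads differed between BN and CD rats by 1.17 to 3.09-fold at these pairs, against a median of 1.14-fold and a 95th percentile of 1.54-fold over all pairs. The part of this in the strand differences was not tested. The genes around these pairs were not looked up, since no annotation of this genome build was used here beyond the regions the study annotated.

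No pair had a strand difference called as depending on pregnancy (0% of 24625 called by limma, and 742, or 3.01%, with an unadjusted p under 0.05). Between CD-P18 and CD-NP, 8 pairs were called on both strands, 6 higher and 2 lower at P18 and all in the same direction on both, with 6 on the forward strand and 5 on the reverse strand alone. In these 8 pairs the strands differed by at most 8.57 points in P18 minus NP. Of all CpGs tested in CD, 0.0478% were called. The count rose to 13, 14 and 14 without CD-P18 replicate 1, 2 or 3, and was 19 with the replicate number as a block, though the numbers do not pair the rats. Between BN-P18 and BN-NP, no pair was called on any strand by the logistic model, with a background of 0.000247%, a single CpG in the whole table. An unadjusted p under 0.05 in that model was reached by 803 forward and 807 reverse strands of the 24625 pairs. Whether P18 minus NP in CD differs from that in BN was not tested. The CD-NP and CD-P18 rats are different outbred animals, 3 each, and no rat was read at both stages. The part of differences between animals in these calls was not tested.

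The largest was at chr18:62595205. The CD-NP rats were at 6.67, 0 and 0% on the forward strand and at 0 on the reverse strand (0 of 46 reads, up to 6.52%), and the CD-P18 rats at 91.2, 100 and 90.9% and at 93.3, 93.3 and 100%. The 6 BN rats were at 85.7 to 100% on the forward and 85.0 to 100% on the reverse strand, in both stages. The groups of CD rats did not overlap on either strand, with differences of 90.6 and 95.3 points (adjusted p = 9.08e-10 and 7.40e-11, logistic model with limma's moderated dispersion).

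At chr3:121547676, in an intron of Zc3h6 by the study's annotation, the CD-NP rats were at 42.9, 6.25 and 38.5% forward and 46.2, 0 and 33.3% reverse, and the CD-P18 rats at 100, 84.2 and 100% and at 100, 81.8 and 100%. At chr4:174856171, in an intron of Aebp2, which encodes a cofactor of Polycomb repressive complex 2, the CD-NP rats were at 0 to 5.88% on both strands and the CD-P18 rats at 57.9, 33.3 and 60% forward and 44.1, 28 and 70.4% reverse. Both were higher at P18 on either strand, by 63.8 and 68.0 points and by 48.0 and 47.7 points.

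At 2 pairs the CD-P18 rats were lower. At chr2:177010675, the CD-NP rats were at 92.9 to 100% on both strands and the CD-P18 rats at 63.6, 23.1 and 0% forward and 52.4, 66.7 and 0% reverse. At chr12:44610708, the CD-NP rats were at 45.8, 38.5 and 75% forward and 40.6, 41.2 and 80% reverse, and the CD-P18 rats at 0, 30 and 0% and at 6.67, 22.2 and 0%. P18 minus NP was -68.3 and -65 points in the first and -47.9 and -42.3 points in the second. The call at chr12:44610708 was lost without CD-NP replicate 3, CD-P18 replicate 1 or CD-P18 replicate 3 (adjusted p = 0.262, 0.0518 and 0.177, logistic model with limma's moderated dispersion). In all 5 pairs the BN rats of both stages stood at 54.8% or more on both strands. At chr2:177010675 the strands of CD-P18 replicate 2 were apart, at 23.1 and 66.7%, on 13 and 15 reads.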

How the data were processed

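Per the labels, the 12 RRBS libraries were made from kidney DNA of 3 rats in each group. Trimming (Trim Galore 0.4.5), removal of duplicates by the random tags of the kit and alignment with Bismark against Rnor6.0 were done by the authors, who deposited 1 methylKit list per library. The deposited values are the coverage, a count of reads for each CpG and strand, and the percent of it that the authors' alignment read as C or as T. Where a rat carries T in place of C, the site reads as unmethylated. The study describes the tissue as sections of cortex and medulla for the RNA, and the labels name a kit that extracts DNA and RNA together. The lowest deposited coverage is 5 reads. The raw gene counts of the RNA libraries, deposited by the authors, were not used here.

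Methylated reads were recovered as coverage times percent. The differences between strands in points were fitted per pair with limma 3.58.1 (R 4.3.3), weighted by coverage, with group means and a variance moderated by squeezeVar and never under counting error. Strain and pregnancy were tested per CpG with a logistic model of the reads and a moderated dispersion. Both used Benjamini-Hochberg adjustment, and both were tested on simulated data. Pairs were called at an adjusted p under 0.05 and over 10 points. Intervals and limits from a count of 0 (3 reads) cover counting error only. Named are the 10 pairs with the largest strand difference of the same sign in 12 rats, the 5 largest in each direction called for strain on both strands at both stages, the 5 largest whose strand difference depends on strain, and at most 5 called on both strands for pregnancy. Features named are the regions the study annotated. The pairs and rules were chosen with earlier results of these data known. The alternatives tried were another coverage minimum, a larger difference, counting error alone, unweighted differences, summed strands, a replicate block and each rat left out, and, added after seeing the data, each pair's own dispersion and pairs of at most 100 reads on a strand. The check of kidney markers could not be run on identifiers without names.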

Additional observations from a re-analysis of the deposited data

Results flagged for a closer look

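The strand difference depended on strain in 8 pairs, by a limma test of the difference between BN and CD rats in forward minus reverse (adjusted p under 0.05 and over 10 points). In the 5 largest, BN minus CD was -70.5 points at chr18:47895239, -51.6 points at chr17:47694758, 43.5 points at chr3:98033649, 36.9 points at chr19:11303055 and -31.5 points at chr2:193573080. Tested at each stage by itself, chr17:47694758 did not pass at NP (adjusted p = 0.0777) and chr3:98033649 not at P18 (adjusted p = 0.738).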

How the results depend on the processing

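The count of 68 pairs with a strand difference was 12 at 20 reads in all 12 libraries, where 260 pairs remain, 12 at a difference over 25 points and 13 with each pair's own dispersion, chosen after seeing the data. All of these were among the 68. Leaving out each rat gave 58 to 68. The count of pairs whose strand difference depends on strain was 8, 2 at 20 reads and 2 with the own dispersion, and 7 to 10 without a rat; for pregnancy it was 0 to 1 without a rat. The strain DMC pairs, 104 at NP and 107 at P18, were 159 and 164 with the reads of both strands summed. Among the 260 pairs at 20 reads they were 12 and 10, all lower in BN. Of the pairs named for a strain difference on both strands, that minimum kept only chr1:11910050, chr1:11910085 and chr1:11910089. These lie in a single stretch lower in BN, and no named pair higher in BN was kept. Without a rat, the strain DMC pairs were 83 to 105 and 80 to 108. The pregnancy DMC pairs in CD, 8, were 0 at 20 reads, 35 with binomial variance alone and 6 to 14 without a rat, 13, 14 and 14 of these without CD-P18 replicate 1, 2 and 3. The mean difference between strands, -0.0257 points, was 0.0828 points with pairs weighted by coverage and 0.594 points at 20 reads. No pair was hemimethylated on the same strand in all 12 rats at any of the limits tried. The count of hemimethylated combinations, 115, was 9 at limits of 80 and 20% and 1686 at 60 and 40%.

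Same-numbered rats of different groups are different animals, and their deviations from the group means correlated at -0.0290 to 0.0468 (18 combinations). With the number as a replicate block, the pregnancy DMC pairs in CD were 19 in place of 8, the strain DMC pairs 101 and 101, and the pairs with a strand difference 66. Of the values of the named pairs under an alternative, 514 kept their call and direction and 12 lost the call. Coverage limits what a single pair can show, with a median of 16 to 32 reads on a strand. A further 22 pairs passed on the adjusted p with a strand difference under 10 points.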
